A study of Mus musculus with 2 samples.

Results

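The genes described here are 10 genes of ureteric bud branching, Gdnf, Ret, Gfra1, Slit2, Slit3, Robo1, Robo2, Spry1, Etv4 and Etv5, out of 21887 protein-coding genes. They were chosen as members of the Gdnf-Ret and Slit-Robo pathways. A peak of open chromatin was given to a gene when its summit lay inside the gene, or when that gene had the nearest protein-coding gene end within 100 kb of the summit. By that rule the genes held 155 of 77529 peaks of the control library and 122 of 61210 peaks of the Brg1 cKO library, and no peak was shared between them. Accessibility had been measured by ATAC-seq, an assay that tags exposed DNA with a transposase, in tdTomato-positive cells of the Wnt4 lineage sorted from mouse kidneys at E18.5, with 50000 cells per reaction. The control library carries the genotype WT control and the other Brg1cKO/cKO, a conditional knockout (cKO) of Brg1, which encodes the catalytic subunit of BAF chromatin remodellers. Each genotype had 1 library, so no test between genotypes was made and every difference below describes these libraries. The Cre line, the sex of the embryos and any pooling of animals were not given in the sources used here, and the cell type entry of the control library reads only "control". In sorted bulk cells, fewer cells with an open site and less opening per cell cannot be told apart.

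GDNF is a secreted growth factor of the kidney mesenchyme, and its receptor is the kinase RET together with the co-receptor GFRA1 on the ureteric bud. RET signalling induces the ETS transcription factors ETV4 and ETV5 at the bud tips, and SPRY1 is an intracellular antagonist of receptor kinase signalling that holds branching in check. SLIT2 and SLIT3 are secreted ligands of the receptors ROBO1 and ROBO2, and SLIT2 with ROBO2 limits where Gdnf is expressed, which restricts budding to a single site.

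Promoter windows from 250 bases before to 50 bases after a start were matched to RefSeq (GRCm38.p6, the assembly of mm10) for 8 of the 10 genes, with 12 windows. The 250 bases before the start are printed for the 3 starts of Robo2, because the starts of this gene differed between the libraries, and for Robo1, Slit3 and Etv5, whose starts lay in peaks of both. All are written 5′ to 3′ on the strand of the gene, with CG dinucleotides in capitals.
Robo2 start 1, chr16:75447294-75447543, minus strand: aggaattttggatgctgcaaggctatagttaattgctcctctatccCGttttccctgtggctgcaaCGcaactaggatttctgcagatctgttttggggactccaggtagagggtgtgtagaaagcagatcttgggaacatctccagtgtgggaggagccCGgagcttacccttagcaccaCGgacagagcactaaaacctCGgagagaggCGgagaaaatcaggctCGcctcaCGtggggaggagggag
Robo2 start 2, chr16:75092771-75093020, minus strand: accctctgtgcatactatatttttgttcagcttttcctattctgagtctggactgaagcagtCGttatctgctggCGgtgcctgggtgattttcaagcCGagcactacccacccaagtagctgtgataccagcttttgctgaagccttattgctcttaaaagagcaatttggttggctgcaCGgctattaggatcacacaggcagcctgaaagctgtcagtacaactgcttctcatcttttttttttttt
Robo2 start 3, chr16:74411826-74412075, minus strand: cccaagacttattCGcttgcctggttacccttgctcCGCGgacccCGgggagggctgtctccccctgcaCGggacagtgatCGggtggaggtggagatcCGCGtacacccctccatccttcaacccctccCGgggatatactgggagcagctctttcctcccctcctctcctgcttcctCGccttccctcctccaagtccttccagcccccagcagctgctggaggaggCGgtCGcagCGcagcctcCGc
Robo1, chr16:72662899-72663148, plus strand: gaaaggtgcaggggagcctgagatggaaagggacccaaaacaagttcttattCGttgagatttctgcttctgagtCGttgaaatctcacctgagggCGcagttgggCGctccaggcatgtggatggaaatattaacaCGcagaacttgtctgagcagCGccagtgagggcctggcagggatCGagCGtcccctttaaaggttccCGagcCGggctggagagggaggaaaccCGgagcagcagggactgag
Slit3, chr11:35121206-35121455, plus strand: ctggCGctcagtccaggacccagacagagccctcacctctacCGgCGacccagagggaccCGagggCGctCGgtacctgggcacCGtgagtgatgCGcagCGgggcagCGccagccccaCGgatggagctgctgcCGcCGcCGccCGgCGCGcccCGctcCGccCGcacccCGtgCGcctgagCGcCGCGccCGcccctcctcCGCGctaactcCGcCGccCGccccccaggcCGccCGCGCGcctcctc
Etv5 start 1, chr16:22439571-22439820, minus strand: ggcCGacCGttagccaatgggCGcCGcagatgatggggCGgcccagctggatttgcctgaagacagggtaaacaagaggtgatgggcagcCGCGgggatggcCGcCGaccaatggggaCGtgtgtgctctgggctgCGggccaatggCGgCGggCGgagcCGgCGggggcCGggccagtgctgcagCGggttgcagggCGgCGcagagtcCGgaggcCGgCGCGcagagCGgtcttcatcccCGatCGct

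All 12 windows overlapped a control peak and 10 overlapped a cKO peak. The 2 windows with a control peak alone were starts 1 and 2 of Robo2. Over all genes, 4.04% of the windows with a control peak lacked a cKO peak, and 0.921% of those with a cKO peak lacked a control peak. The window of Robo2 start 1 held 9 CG dinucleotides and lay in a control peak of 552 bp at percentile 27.9 of significance, ranked within the control list from 0 for the weakest to 100 for the strongest. That of start 2 held 5 CG dinucleotides and lay in a control peak of 650 bp at percentile 39.5. Both peaks were weak. They fell in the next-to-weakest of 5 equal classes of the control list, where 56.4% of all peaks overlapped a cKO peak. The 4.04% covers windows in peaks of every strength. The window of Robo2 start 3, open in both libraries, held 17, the Robo1 window 15, the Slit3 window 41 and the window of Etv5 start 1 held 37. Among the windows of all genes, the median was 20 CG dinucleotides where both libraries had a peak and 5 where the control alone had one. Both Robo2 starts without a cKO peak had the fewest CG dinucleotides of the 12 windows, but start 1 of Gdnf with 11 and Gfra1 with 12, open in both libraries, were close to them. Of the motifs searched on both strands, GGGCGG (SP and KLF factors) was found in the windows of Slit2, Slit3, Spry1 and Etv5, and 35.7% of all windows and 60.9% of those with a control peak hold it. CCAAT was found in windows of Gdnf, Gfra1, Spry1 and Etv5 against 37.4% of all windows and 35.9% of those with a control peak. The E-box CACGTG was found in the window of Robo2 start 1, against 7.15% and 9.59%. The ETS motifs CCGGAAGT and CAGGAAGT and the AP-1 motif TGANTCA are not in these 12 windows. They are in 3.89%, 3.33% and 7.81% of all windows and in 6.66%, 3.14% and 4.86% of those with a control peak.

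Of the 155 control peaks, 108 (69.7%, exact 95% interval 61.8 to 76.8) overlapped a cKO peak by at least 1 bp and 47 did not. Over the whole control list, 25.9% of peaks lacked a cKO peak, and peaks of the same significance were found in 68.8% of cases. In the other direction 107 of 122 cKO peaks (87.7%, interval 80.5 to 93.0) overlapped a control peak and 15 did not, against 5.92% of the whole cKO list without a control peak and 91.8% found among cKO peaks of the same significance. The intervals cover counting error only. The set as a whole was therefore near the background in the control direction. Differences between genes were not tested, and the intervals of single genes overlap. The ROBO receptor genes had 28 of 52 control peaks found (53.8%, interval 39.5 to 67.8; 66.4% for all peaks of the same significance). The other 8 genes had 80 of 103 found (77.7%, interval 68.4 to 85.3, and 70.0% at the same significance). This split was chosen with earlier results of these data known, and the difference was not tested. The intervals treat peaks as independent, yet 12 of the 24 ROBO control peaks not found lay in the rows of 6 neighbours described below. Gdnf (2 of 4) and Ret (3 of 5) had shares near those of Robo1 (50.0%) and Robo2 (58.3%). The rest of the 8 genes had higher shares. By role, GDNF with its receptors had 18 of 26 found, the SLIT ligands 41 of 53, and Spry1, Etv4 and Etv5 together 21 of 24. Most peaks of Spry1 and Etv4 were theirs only while protein-coding genes alone competed for flank peaks, as given below.

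The control peaks of these genes covered 154472 bp and the cKO peaks 133515 bp, a ratio of 0.864. Among the 9 genes with at least 5 control peaks, 8 had fewer cKO than control peaks, where 80.8% of all such genes did. Covered bases were lower in cKO by 1.5-fold or more for 1 of the 9, Robo2, against 21.5% of all 5138 such genes, and higher by that fold for 0 of the 9, against 0.136%. The median ratio was 0.864, and over all such genes it was 0.811. With the control list cut to its strongest peaks so that both lists were equally long, the genes held 115 control and 122 cKO peaks and the ratio of covered bases was 1.03. The direction of these totals thus changed with the list lengths compared. This cut sets both whole lists to the same number of peaks, so it cannot show why the totals differ. With the more significant 50% of each list, which still differ in length, the genes held 57 control and 40 cKO peaks and the ratio was 0.822. Depth is unknown, because the lists hold no read counts, and a missing peak is not evidence of closed chromatin.

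**Figure D1:**
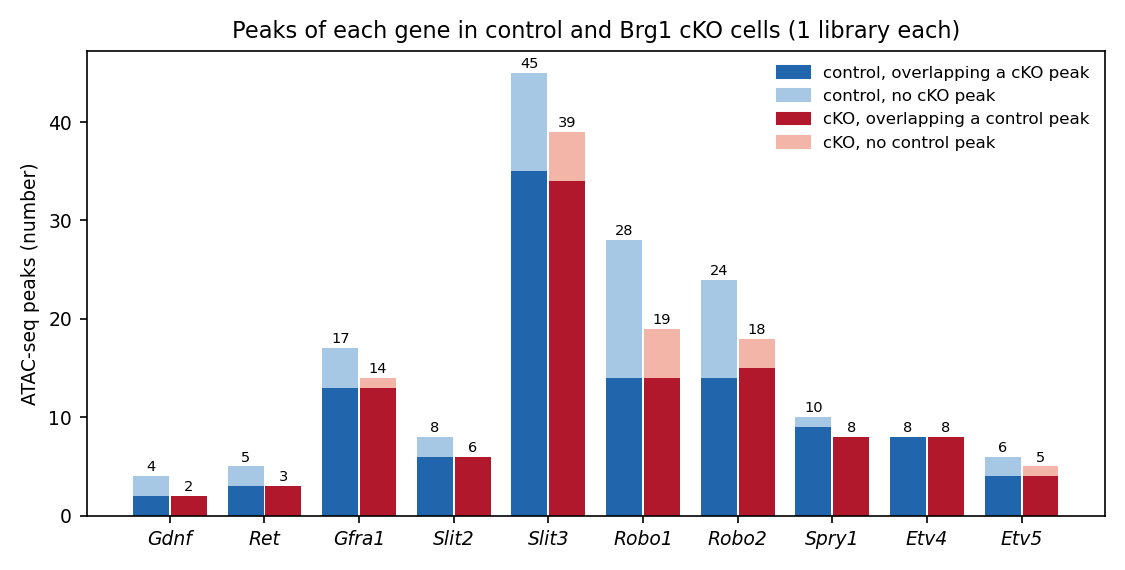
Number of peaks per gene in the control and Brg1 cKO libraries, divided into peaks that overlap a peak of the other library and peaks that do not. Slit3 has the most peaks, 45 in control and 39 in cKO, and Robo1 and Robo2 have 14 and 10 control peaks without a cKO peak.

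More control peaks were found in the stronger classes of significance, while shares by position had wide intervals. At gene ends, within 1000 bp of an annotated end, 7 of 8 control peaks were found (interval 47.3 to 99.7), and 94.7% over all genes. Inside the genes 78 of 114 were found (68.4%, all genes 67.7%), and in the flanks 23 of 33 (69.7%, all genes 73.1%). More than 100 kb from both ends, which only the longer genes can hold, 42 of 66 were found (63.6%, all genes 63.9%). In the weakest of 5 equal classes of the control list 17 of 37 peaks were found (45.9%, all peaks 38.5%), in the next 18 of 39 (46.2%, all peaks 56.4%), in the middle one 36 of 40 (90.0%, all peaks 81.1%), in the next 24 of 26 (92.3%, all peaks 94.8%) and in the strongest 13 of 13 (all peaks 99.9%). In the less significant 50% of the control list the ROBO genes had 13 of 36 peaks found (36.1%, interval 20.8 to 53.8), against 53.3% of all peaks there. In the more significant 50% they had 15 of 16 found (93.8%, all peaks 95%), counting overlap with cKO peaks of any strength. Against only the more significant 50% of the cKO list, 8 of these 16 were found (50.0%, interval 24.7 to 75.3, all peaks 75.4%).

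**Figure D2:**
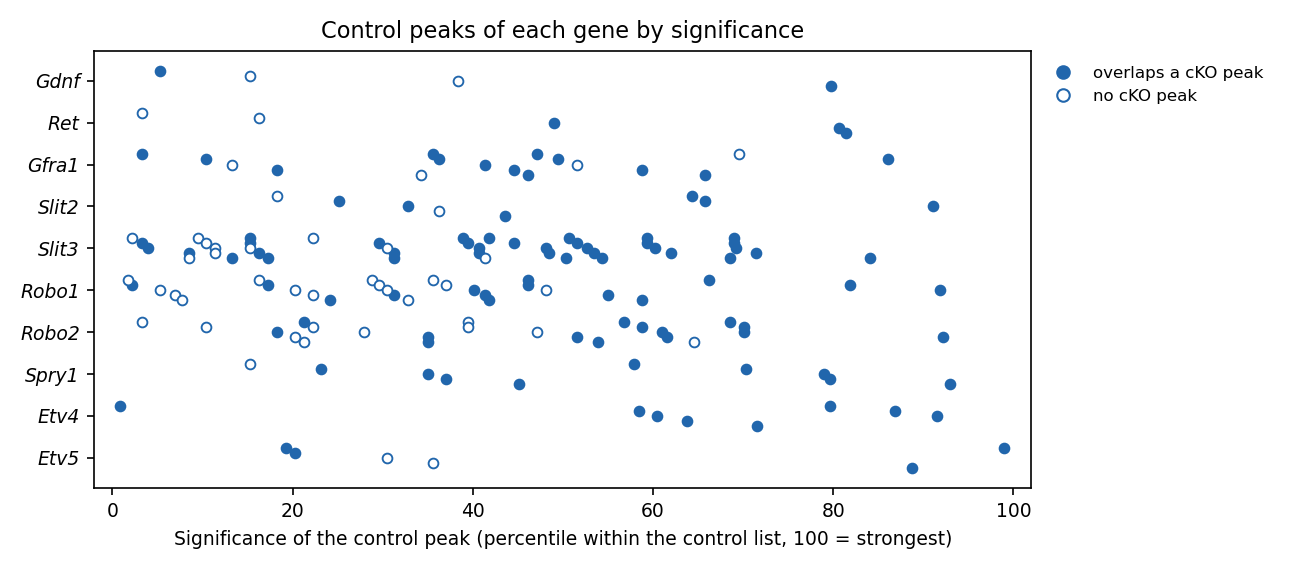
Each control peak of each gene by its percentile of significance within the control list; filled points overlap a cKO peak and open points do not. Open points gather on the weak side, and the open point of highest percentile, 69.6, belongs to Gfra1.

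At Gdnf, on chromosome 15 from 7810048 to 7837580, the broad peak that covers both annotated starts measured 7146 bp in control and 7568 bp in cKO. Its percentile was 79.8 in control and 78.2 in cKO, and it was the strongest peak of the gene in each list. Of 4 control peaks 2 were found. The strongest of the others was an internal peak of 646 bp at percentile 38.3, and the remaining one, of 336 bp, lay 83.0 kb before the gene near the limit of the rule. Both cKO peaks of Gdnf had a control peak, and the gene had too few control peaks for the count of covered bases above. Its ratio of covered bases was 0.94, and 1.09 with lists of equal length.

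**Figure D3:**
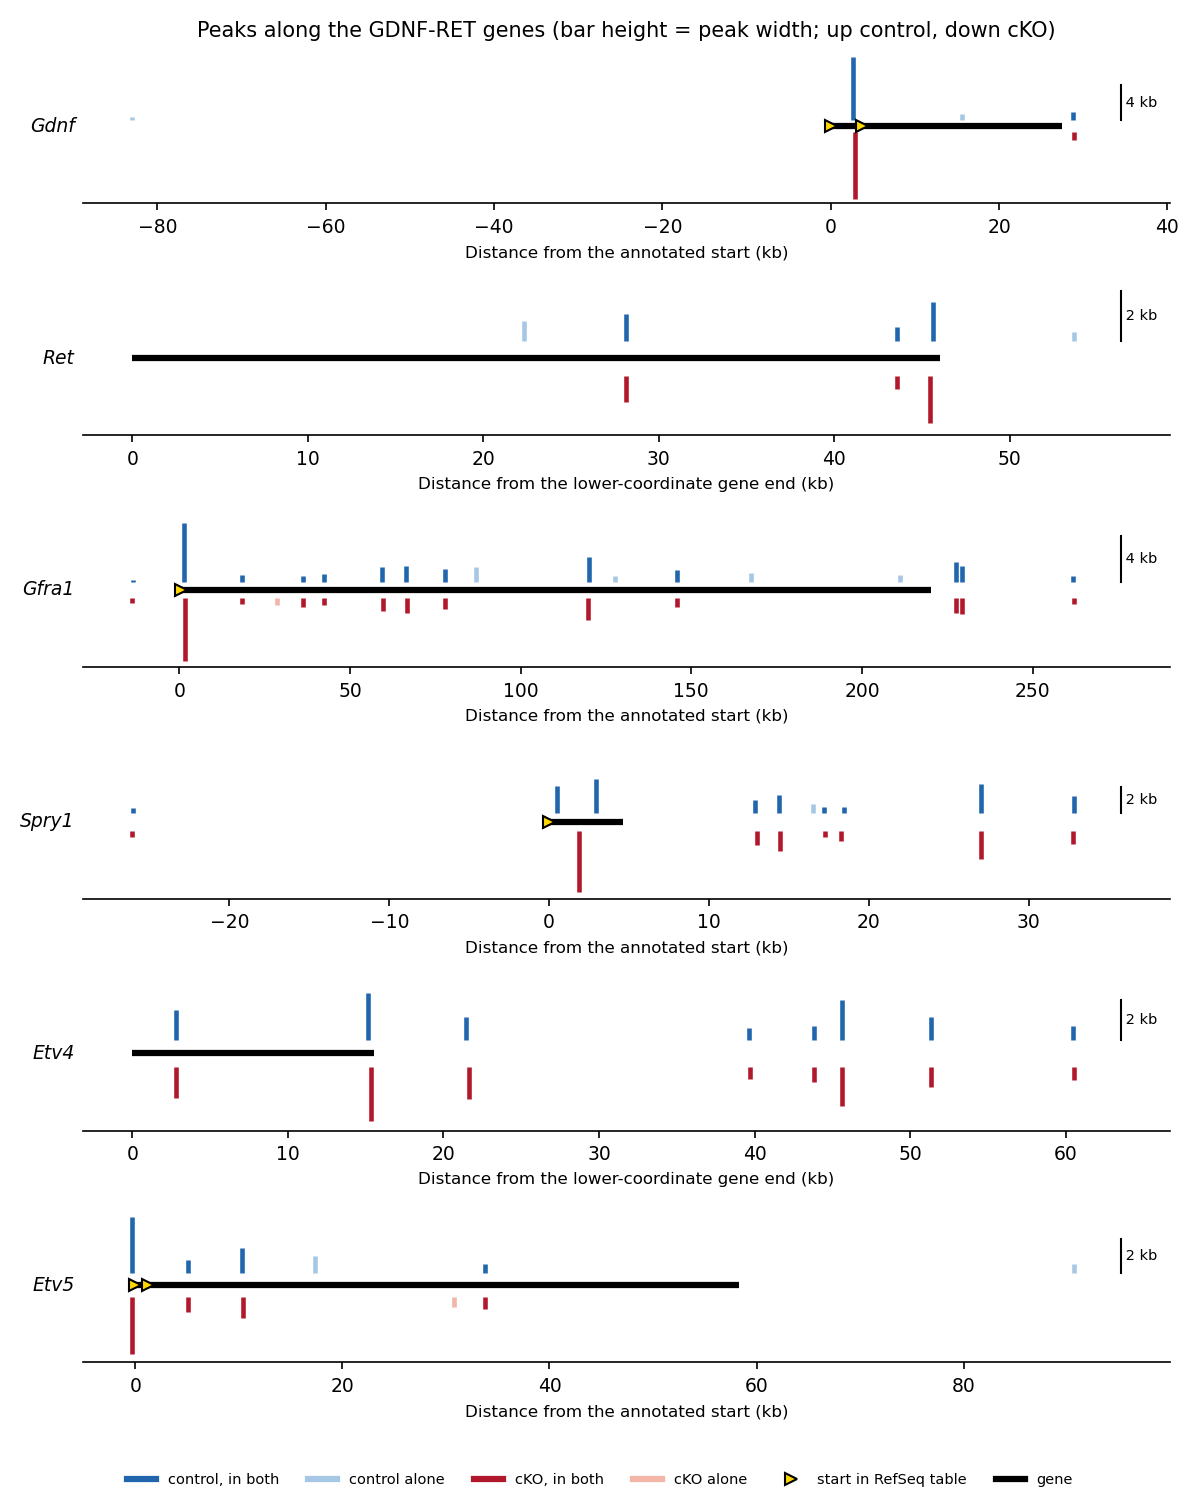
Peaks at Gdnf, Ret, Gfra1, Spry1, Etv4 and Etv5 by distance from the start of the gene, or from its lower coordinate where the strand was not in the sources used here; control peaks point up and cKO peaks down, with bar height for peak width. The broad peaks at the starts appear in both libraries, 7146 and 7568 bp at Gdnf and 5107 and 5513 bp at Gfra1.

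At Ret, on chromosome 6 from 118151748 to 118197744, 3 of 5 control peaks were found and all 3 cKO peaks had a control peak. The peak at the upper end of the gene measured 1558 bp in control and 1885 bp in cKO, at percentiles 81.4 and 76.8, and the peak 17.9 kb inside that end measured 1057 and 1077 bp. The strongest control peak without a cKO peak had percentile 16.3. The 2 strong peaks of Ret were thus present in both libraries. The third pair measured 538 bp in control and 545 bp in cKO, at percentiles 49.0 and 26.2. The cKO peak was wider in all 3 pairs, but the ratios were only 1.02, 1.01 and 1.21, and 41.2% of all pairs were wider. Covered bases had a ratio of 0.814, and of 1.11 with lists of equal length. Of 10 ureteric bud and collecting duct marker genes, 7 had a gene-end peak in control and 8 in cKO. The nephron list had 7 of 10 in each library and the stromal list 7 and 6, so this count does not tell cell types apart. The part of such cells in the Ret peaks was not tested.

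At Gfra1, on chromosome 19 from 58235581 to 58455946, 13 of 17 control peaks were found (76.5%, interval 50.1 to 93.2) and 13 of 14 cKO peaks. The start peak measured 5107 bp in control and 5513 bp in cKO, at percentiles 86.1 and 82.6. The strongest control peak without a cKO peak among all 10 genes lay inside Gfra1, 87.2 kb from the start, with 1325 bp and percentile 69.6 (58368367 to 58369691). The cKO library had 1 peak of its own there, of 576 bp at percentile 18.6, 28.5 kb from the start.

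At Slit2, on chromosome 5 from 47981291 to 48307735, 6 of 8 control peaks were found and all 6 cKO peaks had a control peak. The peak over the start of its promoter window was the strongest in each list. It lay inside the annotated gene, with its control summit 1.76 kb from the gene end, and did not cover that end. This peak measured 4522 bp in control and 4457 bp in cKO, at percentiles 91.1 and 89.5. The strongest control peak without a cKO peak lay 1.70 kb before the gene, with 356 bp and percentile 36.3. Slit2 also held an interval of 192.1 kb with no control peak.

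Slit3, on chromosome 11 from 35121456 to 35708507, had the most peaks of the 10 genes, with 6.81 control and 6.13 cKO peaks per 100 kb of gene and 6.03% of its length in control peaks. Of its 45 control peaks 35 were found (77.8%, interval 62.9 to 88.8), and of its 39 cKO peaks 34 (87.2%, interval 72.6 to 95.7). The start peak measured 2296 bp in control and 2429 bp in cKO, at percentiles 84.1 and 84.7. Covered bases were 39232 in control and 37247 in cKO, a ratio of 0.949, which became 1.3 with lists of equal length. All 10 control peaks without a cKO peak were in the weaker part of the list, the strongest of 851 bp at percentile 41.3, and all 5 cKO peaks without a control peak were at percentile 14.5 or below. These 5 lay 10.7 to 267 kb from the nearer gene end, with widths of 692, 694, 811, 1039 and 835 bp in coordinate order.

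**Figure D4:**
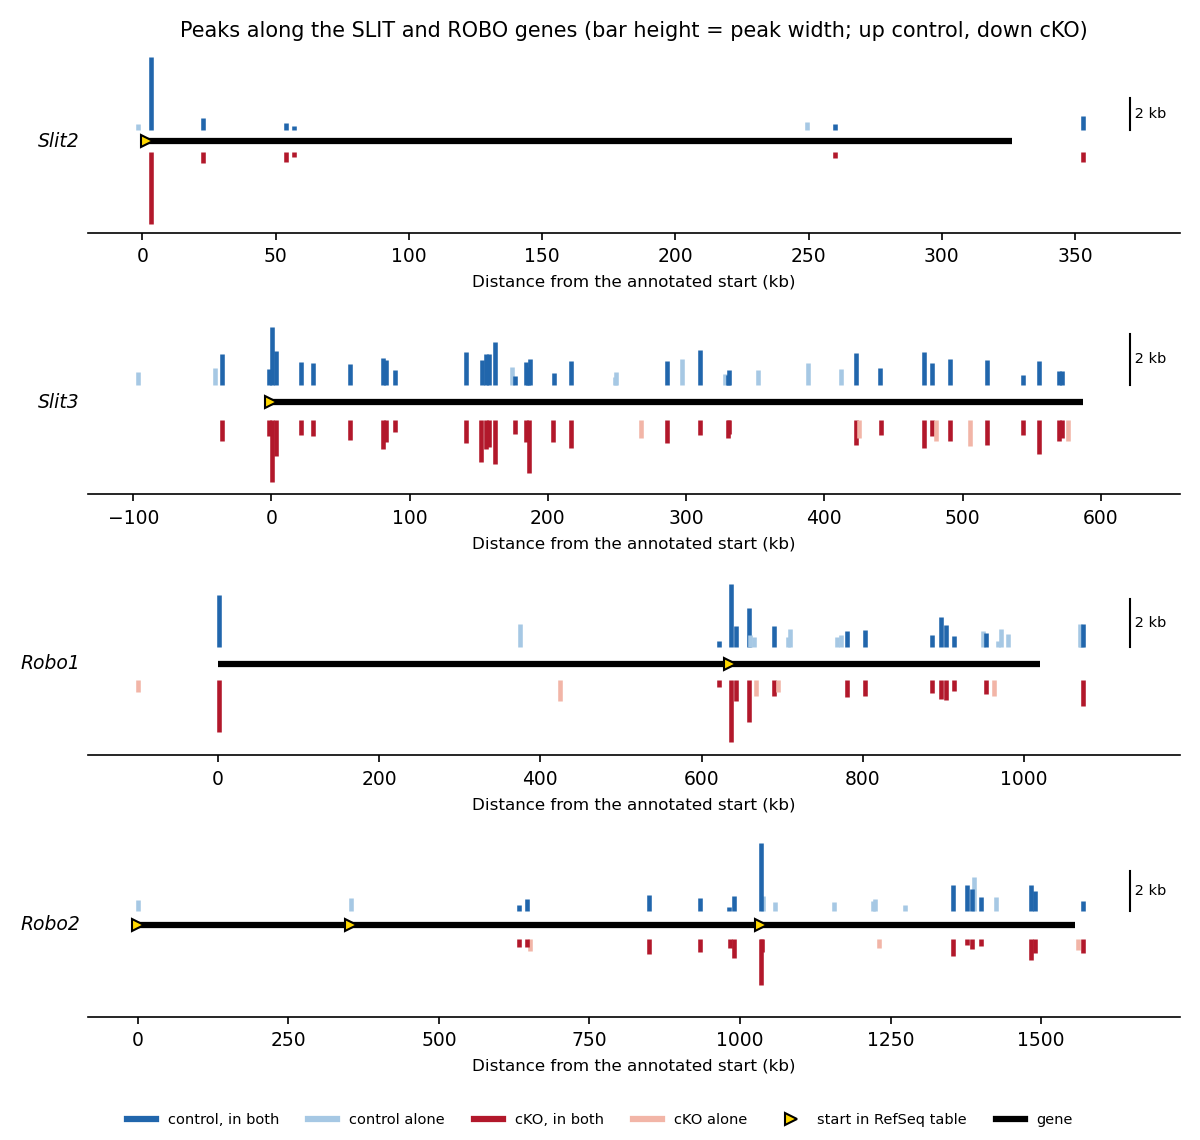
Peaks at Slit2, Slit3, Robo1 and Robo2 by distance from the gene start; control peaks point up and cKO peaks down, with bar height for peak width. Slit3 is dense in both libraries, and Robo2 has control bars without a cKO bar at starts 1 and 2 and in an interval of 236.6 kb.

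Robo1, on chromosome 16 from 72027518 to 73047491, had 14 of 28 control peaks found (50.0%, interval 30.6 to 69.4) and 14 of 19 cKO peaks (73.7%, interval 48.8 to 90.9). Its starts were alike in the libraries. The peak at the outer start measured 2175 bp in control and 2155 bp in cKO, and the stronger peak over the inner start, whose promoter is printed above, 2625 bp and 2581 bp at percentiles 91.9 and 91.1. The control peaks without a counterpart were weak ones inside the gene and beyond its 3′ end, the strongest of 507 bp at percentile 48.1. At the 3′ side 6 neighbouring control peaks in a row, from 72995265 to 73099391 (104.1 kb) and covering 3658 bp, had no cKO peak, and the cKO library had 0 peaks in that interval. With lists of equal length 4 of these 6 stayed in the control list, which reflects only their rank in that list. The cKO library had 5 peaks of its own, of which the strongest, 849 bp at percentile 44.6, lay 424 kb from the nearer end. The other 4 were at percentile 4.49 or below, 1 of them 99.3 kb before the gene. Covered bases of Robo1 had a ratio of 0.749, of 0.974 with lists of equal length and of 0.957 with the more significant 50% of each list.

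Robo2, on chromosome 16 from 73891976 to 75447443 on the minus strand, had the lowest ratio of covered bases of the 10 genes, 20370 bp in control and 12681 bp in cKO (0.623). The ratio was 0.681 with lists of equal length, short of the 1.5-fold limit, and 0.393 with the more significant 50% of each list. Counting only peaks whose nearest gene end is that of Robo2, which left 4 control and 4 cKO peaks, it was 0.908. Robo1 then had the lowest ratio, 0.612, from 10 control and 5 cKO peaks. Of the 24 control peaks of Robo2, 14 were found (58.3%, interval 36.6 to 77.9), and of its 18 cKO peaks 15 (83.3%, interval 58.6 to 96.4). Start 3 lay in open chromatin in both libraries, but a control peak of 3373 bp faced cKO peaks of 628 and 2313 bp. This was the strongest control peak of the gene, at percentile 92.2, and the broader cKO piece was its strongest cKO peak, at percentile 88.2. The other 2 starts had no cKO peak, as given above. Both control peaks there ranked high enough in the control list to stay at equal list length, which says nothing about cKO. Splitting of a control peak into 2 or more cKO peaks occurred for 1.29% of all control peaks, and for 1 peak of these genes.

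Inside Robo2, toward its 3′ end, the matched peaks of 1 interval were narrower in cKO. The pair nearest that end, 13.8 kb beyond the gene, was wider in cKO, 488 bp in control and 695 bp in cKO. Between 73957842 and 74094046, an interval of 136.2 kb starting 65.9 kb from the 3′ end, the control library had 8 peaks of 670 to 1690 bp covering 8994 bp. The cKO library had 6 peaks covering 3801 bp (0.423), each narrower than its control peak. In coordinate order the pairs measured 983 and 711 bp, 1289 and 1062 bp, 670 and 338 bp, 1071 and 520 bp, 1283 and 320 bp, and 1307 and 850 bp in control and cKO. The 2 control peaks with no counterpart measured 701 and 1690 bp, the latter the strongest such peak of Robo2 at percentile 64.5. All 8 control peaks stayed in a control list of equal length. This follows from their percentiles of 47.1 to 70.1 within the control list and says nothing about cKO. Further into the gene 6 neighbouring control peaks from 74172734 to 74409286 (236.6 kb), covering 3017 bp, had no cKO peak. By their rank in the control list alone, 3 of them stayed at equal list length. The cKO library had 1 peak of its own there, of 452 bp at percentile 3.12. Its other peaks without a control peak were 539 bp at percentile 9.64, 5.13 kb beyond the 3′ end, and 615 bp at percentile 0.755, 652 kb from the nearer end. The rows of 6 neighbours in Robo1 and Robo2 together held 12 control peaks, 7.74% of the control peaks of these genes, where 0.58% of all control peaks lay in such rows. Both intervals, the 136.2 kb interval of Robo2 and the number 6 were chosen after the values were seen.

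Spry1, on chromosome 3 from 37639947 to 37644599, had 9 of 10 control peaks found, and all 8 cKO peaks had a control peak. Over the gene 2 control peaks of 2107 and 2638 bp faced a single cKO peak of 4831 bp, at percentile 93.0 for the former and 91.3 for the cKO peak. Covered bases were 12546 in control and 12601 in cKO. Its only control peak without a counterpart was 655 bp at percentile 15.3, 11.8 kb beyond the gene. When all annotated genes, not only protein-coding ones, competed for flank peaks, Spry1 kept 2 control peaks and 1 cKO peak. Joining of 2 or more control peaks in cKO occurred for 1.45% of all cKO peaks, and for 1 peak each at Spry1 and Slit3.

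Etv4, on chromosome 11 from 101769747 to 101785310, was the gene in which every peak was found in the other library, 8 of 8 in each direction. This count depends on the rule that only protein-coding genes compete for flank peaks. When all annotated genes competed, Etv4 kept 1 control peak of 1481 bp and 1 cKO peak of 1551 bp, both inside the gene. The peak at its upper end measured 2374 bp in control and 2689 bp in cKO, at percentiles 91.5 and 91.2. Covered bases were 10125 in control and 10783 in cKO, a ratio of 1.06. Etv5, on chromosome 16 from 22381313 to 22439570, had the most significant peak of all 10 genes over its start, 3286 bp in control and 3300 bp in cKO at percentiles 99.0 and 98.8. Of its 6 control peaks 4 were found, and the strongest of the others was 530 bp at percentile 35.6. The cKO library had 1 peak of its own in Etv5, of 568 bp at percentile 15.6. The ratio of covered bases was 0.864, and with lists of equal length 1.05, with 2 of 4 control peaks found. The start or end peaks of all 3 genes downstream of RET were thus open in both libraries.

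For 103 control peaks matched 1 to 1 with a cKO peak, widths were narrower in cKO for 54 and wider for 49, with a median ratio of 0.991. Over all 54820 pairs, 58.1% were narrower and 41.2% wider, with a median ratio of 0.982. In 7 pairs the cKO peak was narrower by 1.5-fold or more, 4 of them in Robo2, 2 in Slit3 and 1 in Robo1, where 8.55% of all pairs were that much narrower. In 8 pairs it was wider by that fold, 5 of them in Slit3 and 1 each in Gfra1, Robo2 and Spry1, against 3.9% of all pairs. The 13 pairs of Robo2 had a median ratio of 0.824 and a lowest ratio of 0.249. The 4 narrower Robo2 pairs lay in the interval near its 3′ end described above, which was itself chosen after the values were seen.

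**Figure D5:**
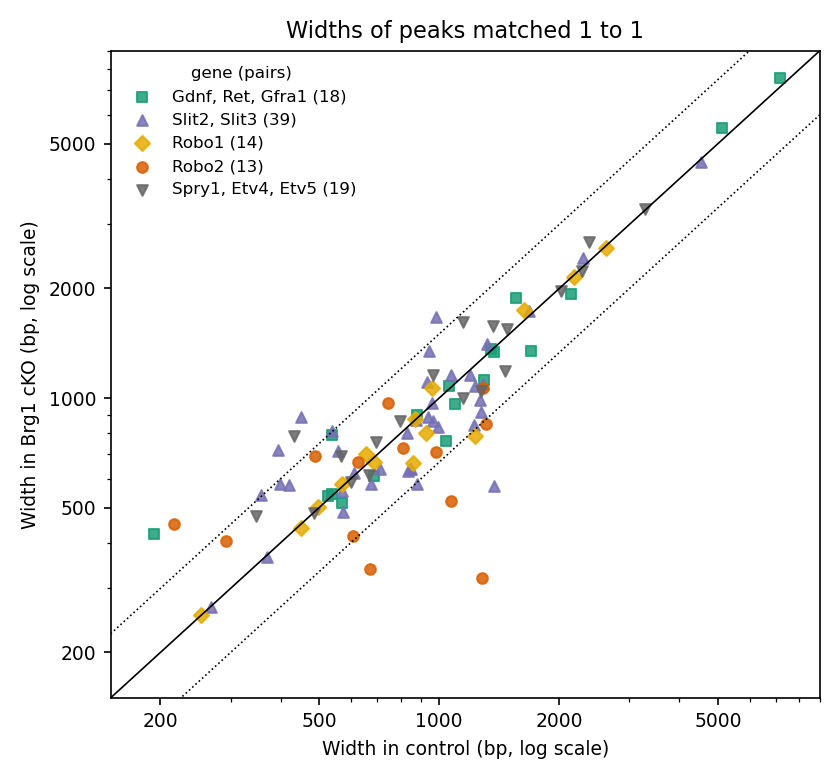
Width of each matched peak in control and in cKO on log axes; the solid line marks equal width and the dotted lines a 1.5-fold difference. Robo2 points below the lower dotted line include the pair of 1283 and 320 bp, and the broadest peaks lie close to the line of equal width.

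Among 48 other genes of these pathways, 316 of 496 control peaks were found (63.7%, interval 59.3 to 67.9), where 74.1% of all control peaks were. Other ligands, co-receptors and relatives had 42 of 60 found, effectors and antagonists 106 of 189 (56.1%, interval 48.7 to 63.3), and upstream regulators and branching partners 168 of 247. A single gene, Srgap1, held 51 of the 189 peaks of effectors and antagonists. The share for all peaks of the same significance was not computed for these lists, so a difference from the background was not tested. Of the 32 genes with at least 5 control peaks, covered bases were lower by 1.5-fold or more in cKO for 8 and higher for 0, beside 21.5% and 0.136% of all such genes. Srgap1, which acts downstream of ROBO receptors, had the largest excess of control peaks without a counterpart, with 15 of 51 found, 36 not found, and 58052 bp in control against 18319 bp in cKO (0.316). Next came Fgfr2, a fibroblast growth factor receptor, with 22 of 36 found, Gab1, an adaptor of receptor kinases, with 12 of 24, and Ncam1, a cell adhesion molecule, with 15 of 28. At the other end of this ranking, by control-only minus cKO-only peaks, Gfra3 had 3 of 3 control peaks found and 1 cKO peak of its own. Artn (2 of 2 found), Eya1 and Agtr2 were taken alphabetically from genes tied at 0. Eya1 had 5 of 7 found and 2 cKO peaks of its own, and Agtr2 had no peak in either library.

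For the identity of the cells, 7 of 10 nephron marker genes had a gene-end peak in each library. Stromal markers had one for 7 of 10 genes in control and 6 in cKO, endothelial markers for 5 of 6 in each, blood markers for 1 of 6 in control and 0 in cKO, and nerve markers for 3 of 6 in control and 5 in cKO. A gene-end peak shows an open site and not expression. The share of all genes with such a peak was not counted, but 52.2% of all promoter windows overlapped a control peak. These counts therefore do not identify the cells. Peaks close to the distance limit were few. Within it, Gdnf had a control peak at 83.0 kb, Slit3 a control peak at 96.8 kb and Robo1 a cKO peak at 99.3 kb, none with a counterpart. Beyond it, Slit3 had a cKO peak at 109 kb without a counterpart and a matched control and cKO peak at 114 kb.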

How the data were processed

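ATAC-seq was run on 1 control and 1 Brg1 cKO library of sorted Wnt4-lineage kidney cells. Per the submitters' processing notes, Trim Galore, SAMtools and Genrich were used on mm10; the aligner, tool versions, settings and any read shifting were not given in the sources used here. For molecule, the labels read total RNA, but their protocol is ATAC-seq. A narrowPeak list was deposited for each library. The authors' score per peak and the deposited signal were not compared between libraries, since they depend on depth. The deposited −log10 p ranked peaks within their own list, and the deposited −log10 q was not used. The authors' deposited summit offset gave the summit.

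Genes and promoter windows came from RefSeq tables of GRCm38.p6; the gene table holds no strand or exons, and strand was taken from the promoter table. A peak was found when it overlapped a peak of the other list by at least 1 bp. Genes were read with at least 5 control peaks, folds at 1.5, and significance in 10 classes, shown as 5. Exact Clopper-Pearson 95% intervals cover counting error only. Named were all 10 genes, 4 other pathway genes at either extreme of the control-only minus cKO-only count (ties alphabetical), gene-end peaks, the strongest peak, the strongest control-only peak and every cKO-only peak. The members, lists and tests were chosen with earlier results of these data known. The counting was tested on simulated data. Python 3.11.15, pandas 2.3.3, SciPy 1.17.1 and matplotlib 3.10.9 were used. Alternatives changed overlap, threshold, list length, reach and gene assignment.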

Additional observations from a re-analysis of the deposited data

How the results depend on the processing

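With 1 library per genotype, no replicate could be left out. No paired analysis was possible because each genotype has 1 library. The control list cut to the length of the cKO list turned the difference in peak number from 33 more in control to -7 (115 against 122) and the ratio of covered bases from 0.864 to 1.03. It also moved the share of control peaks found from 69.7% to 78.3% and of cKO peaks found from 87.7% to 73.0%. Over all peaks this setting gave 83.5%, 84.2% and a base ratio of 0.962. Requiring 50% overlap of both peaks moved the share of cKO peaks found to 80.3%. The difference in number was 17 with the more significant 50% of each list and 14 with the nearest gene end only. Of 175 shares found for single genes or groups, 158 stayed within the interval of the reported share and 17 moved. Intervals of genes with few peaks are wide, 6.76 to 93.2 for Gdnf, so staying within them says little. Of 79 ratios of covered bases for single genes, 78 stayed within 1.5 times the reported ratio and 1 did not (Robo2, 0.393), but 10 crossed 1. These were Gdnf, Ret, Slit3 and Etv5 at equal list length, Gdnf, Ret, Spry1 and Etv4 with the more significant 50%, and Gfra1 and Slit3 with the nearest gene end only. The 50% overlap setting leaves covered bases unchanged, so its ratios could not move. Giving peaks by any base inside the gene, with midpoints for flanks, left every value the same. Both settings therefore add to the counts that stayed. The ROBO share found ranged from 42.9% to 62.5% and that of the other 8 genes from 70.9% to 86.7% over all settings. All settings reuse peaks of the same libraries, so these ranges do not test the split. The lists hold only called peaks, so depth, and sites just below the caller's threshold, limit every count.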
